A study of Mus musculus with 6 samples.

Results

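Of the 23896 genes with a symbol in the deposited counts, 10 genes of autophagy and mitophagy are described here: Bnip3l, Fundc1, Sqstm1, Ulk1, Map1lc3a, Map1lc3b, Gabarapl1, Gabarapl2, Atg4d and Tfeb. They were chosen by name for their place in the pathway, and each is represented by its RefSeq transcript with the highest mean count. All 10 passed the filter on low counts, as did 12381 genes in all. The libraries are mRNA-seq of MEL cells, a mouse erythroleukemia line held at the proerythroblast stage, before DMSO (day 0) and after 2 and 4 days in 2% DMSO, which starts terminal erythroid differentiation. Each day has 2 libraries, described by the study as biological replicates. Untreated cultures of the later days were not analysed here, so days of DMSO and days of culture cannot be told apart, and a transformed line in suspension is a limited model of a maturing erythroblast.

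Autophagy encloses cytoplasm in a double membrane and delivers it to the lysosome. A kinase complex built on ULK1 starts the membrane, ubiquitin-like proteins of the ATG8 family (the LC3 and GABARAP proteins) are attached to its lipid after ATG4 proteases trim them, and receptors tie cargo to those proteins. Maturing red cells use this route to remove their mitochondria, a step called mitophagy for which the outer membrane receptor NIX, the product of Bnip3l, is best known.

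By day 4, 6 of the 10 genes were called higher than at day 0 and none was called lower, where 71.8% of all tested genes were called, 35.5% higher and 36.4% lower. Map1lc3a rose 6.06-fold, Ulk1 3.91-fold, Map1lc3b 2.11-fold and Gabarapl2 2.03-fold, whereas Atg4d and Gabarapl1 rose 1.61-fold and 1.57-fold. Sqstm1 fell by day 2 and was back near its starting level at day 4. Bnip3l and Fundc1 were called at neither step, and Tfeb was called lower at day 2 alone.

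Counts on RefSeq transcripts summed to between 35294930 and 53899476 per library. Reads on no feature made up 50.5% to 58.4% of the total of these counts and the reads on no feature. A read can be counted for more than 1 transcript of a gene, so this is not a share of reads. The 9 erythroid markers examined, among them Hba-a1, Hbb-bs, Alas2 and Slc4a1, summed to between 1090 and 1160 scaled counts (CPM, relative to library size with TMM factors) before DMSO, 4280 and 5080 on day 2 and 17700 and 19800 on day 4. The list did not move as a whole: the erythroid factor gene Gata1 had a mean of 202 CPM at day 0 and 262 at day 4 (log2 fold change 0.37, adjusted p = 0.00772), and Klf1 went the other way, from 192 and 309 CPM in the day 0 libraries to 171 and 173 at day 4 (log2 fold change −0.54, adjusted p = 0.0188). The 6 myeloid markers (Spi1, Mpo, Elane, Lyz2, Itgam and Csf1r) summed to between 101 and 122 CPM before DMSO, 13.7 and 14.1 on day 2 and 7.45 and 12.5 on day 4, most of it Spi1. The fall of the sum is mostly that of Spi1. Csf1r, at a low level, was also called lower at day 2. It had a mean of 1.18 CPM at day 0, 0.36 at day 2 (log2 fold change −1.66, adjusted p = 0.0061) and 0.639 at day 4. Lyz2, at a low level, went from a mean of 0.352 CPM at day 0 to 1.47 at day 2 (log2 fold change 2.08, adjusted p = 0.000699) and 0.346 at day 4. From day 0 to day 4, Mpo, Lyz2 and Csf1r were not called (adjusted p = 0.806, 0.941 and 0.0635), and Elane and Itgam were too low to test. The 4 megakaryocyte markers, mostly Itga2b, summed to between 268 and 271, 211 and 233, and 543 and 617 CPM, and moved in opposite directions: Itga2b rose from a mean of 218 CPM at day 0 to 569 at day 4 (log2 fold change 1.38, adjusted p = 2.39e-06), whereas Pf4 went from 50.0 to 9.56 (log2 fold change −2.39, adjusted p = 3.18e-07). Lymphoid markers (4) stayed at or under 0.172 CPM in sum, and fibroblast markers (3) at or under 8.3, with no marker of any list at 0 counts over all libraries. These sums moved over the same days as the genes below, and their part in the results was not tested. In bulk libraries, fewer cells of a type and less RNA per cell cannot be told apart.

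The windows around annotated starts are shown for 4 of the genes, chosen to stand for the shapes described below: Ulk1 and Gabarapl2 (higher at both steps), Sqstm1 (lower, then higher) and Atg4d (higher after day 2). Each is 300 bases from RefSeq (GRCm38.p6), 250 before and 50 after the start, read 5′ to 3′ on the strand of the gene. They lie at chr5:110810032-110810331 (minus strand) for Ulk1, chr8:111940453-111940752 (plus) for Gabarapl2, chr11:50210771-50211070 (minus) for Sqstm1 and chr9:21265035-21265334 (plus) for Atg4d. Capitals mark matches on either strand to the GC box, or to the motifs of GATA factors and of the TATA-binding protein, whose letters are given in the next paragraph.
Ulk1: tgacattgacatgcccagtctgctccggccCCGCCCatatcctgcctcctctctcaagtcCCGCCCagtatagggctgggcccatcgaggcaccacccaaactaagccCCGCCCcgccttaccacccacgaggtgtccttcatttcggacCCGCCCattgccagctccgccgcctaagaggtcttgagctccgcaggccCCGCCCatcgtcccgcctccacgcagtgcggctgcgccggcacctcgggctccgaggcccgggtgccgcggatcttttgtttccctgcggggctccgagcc
Gabarapl2: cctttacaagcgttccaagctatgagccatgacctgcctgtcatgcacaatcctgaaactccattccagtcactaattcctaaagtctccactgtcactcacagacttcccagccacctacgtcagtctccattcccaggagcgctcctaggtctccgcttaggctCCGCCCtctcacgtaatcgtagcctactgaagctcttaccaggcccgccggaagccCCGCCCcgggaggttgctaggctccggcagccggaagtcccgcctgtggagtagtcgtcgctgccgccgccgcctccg
Sqstm1: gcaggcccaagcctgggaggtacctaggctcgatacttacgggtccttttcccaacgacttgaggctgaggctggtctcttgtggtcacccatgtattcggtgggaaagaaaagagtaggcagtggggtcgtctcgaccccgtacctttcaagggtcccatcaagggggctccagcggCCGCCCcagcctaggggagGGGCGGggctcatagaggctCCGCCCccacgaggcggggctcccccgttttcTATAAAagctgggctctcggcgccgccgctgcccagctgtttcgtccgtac
Atg4d: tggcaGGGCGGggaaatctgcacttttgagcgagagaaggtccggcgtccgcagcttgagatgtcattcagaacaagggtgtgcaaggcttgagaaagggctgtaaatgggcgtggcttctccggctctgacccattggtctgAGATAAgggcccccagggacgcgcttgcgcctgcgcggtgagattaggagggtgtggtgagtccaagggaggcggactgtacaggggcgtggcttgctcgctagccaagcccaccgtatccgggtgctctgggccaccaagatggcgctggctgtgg

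RefSeq windows were matched for 8 of the 10 genes, with 3 for Tfeb, which gave 10 windows, and Bnip3l and Map1lc3a had no entry. The GC box, searched as GGGCGG on both strands like every motif here, was found in 9 of these windows and in 7 of the 8 genes, Fundc1 being the gene without it, against 35.7% of the 32851 windows of the same length that were searched. These leave out 1 chromosome and are called all windows here. Ulk1 held 5 copies, all on the minus strand of the window, and Sqstm1 held 3. The 10 windows also had more G and C than the windows searched, with a median of 60.9% against 52.7%, and a median of 20 CpG dinucleotides against 7. CACGTG, the E-box at the core of the CLEAR element to which TFEB binds, was in none of the 10 windows and in 7.15% of all windows, and the longer TCACGTGA, which contains it, was in none and in 0.974%. AGATAA, bound by GATA factors, was found once, in Atg4d with its first base 107 bases before the start (11.2% of all windows). GTAAACA, a FOXO motif, was in none (3.65%). TATAAA, the motif of the TATA-binding protein, was in Sqstm1 alone, beginning 1 base before the annotated start (13.6%), and TGACNNNGC, the antioxidant response element, in Map1lc3b alone (12.4%). These matches describe letters in a window and say nothing of binding.

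BNIP3L, or NIX, sits in the outer mitochondrial membrane and recruits LC3 and GABARAP proteins. Bnip3l (NM_009761, 6 exons, chr14:66985239-67008877 of GRCm38, minus strand) had 101 and 116 CPM in the day 0 replicates, 105 and 98.6 at day 2, and 124 and 125 at day 4. The day 4 libraries lay above all others, and the day 0 and day 2 libraries overlapped. On the log2 scale the change to day 2 was −0.09 (SE 0.11, adjusted p = 0.483, edgeR quasi-likelihood test with Benjamini-Hochberg adjustment over all transcripts, as throughout), 0.29 for day 4 against day 2 (SE 0.11, adjusted p = 0.0614) and 0.20 for day 4 against day 0 (SE 0.11, adjusted p = 0.114). None passed the threshold of 0.05, and the 95% interval of the change over the whole course ran from −0.04 to 0.44, so a change of 2-fold in either direction lies outside it. The step after day 2 is near the threshold: it was called with DESeq2 (adjusted p = 0.045), in a fit of days 2 and 4 alone (0.0113), and in fits without day 0 replicate 1 or without day 0 replicate 2 (0.0121 and 0.0115). The change from day 0 to day 4 was also called without day 0 replicate 2, at 0.30 (adjusted p = 0.019), and with libraries scaled by total counts, at 0.32 (adjusted p = 0.0205). With total counts, the value from day 0 to day 2 turned to 0.11. A second annotated gene, Bnip3l-ps, shares 28.7% of the 30-base words of this transcript, so reads may be split between them.

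FUNDC1 is another receptor of the outer mitochondrial membrane, known for mitophagy under low oxygen. Fundc1 (NM_028058, 5 exons, chrX:17556564-17572325, minus strand) had 26.9 and 25.5 CPM at day 0, 25.8 and 23.1 at day 2, and 23.1 and 24.2 at day 4. Its libraries overlapped between days 0 and 2 and between days 2 and 4, and the day 0 libraries lay above those of day 4. No change was called at either step or over the course (log2 fold changes −0.10, −0.05 and −0.15, SE 0.12 each, adjusted p = 0.473, 0.795 and 0.28), and the 95% interval from day 0 to day 4 ran from −0.41 to 0.11. With total counts the value from day 0 to day 2 was 0.10.

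SQSTM1, or p62, binds both ubiquitin on cargo and LC3, and is itself degraded by autophagy. Sqstm1 (NM_011018, 8 exons, chr11:50200152-50210827, minus strand) had 207 and 226 CPM at day 0, 127 and 135 at day 2, and 218 and 230 at day 4. Both day 2 libraries lay below all 4 others, and the day 0 and day 4 libraries overlapped. Sqstm1 fell by 0.72 on the log2 scale to day 2 (SE 0.11, adjusted p = 0.000195) and rose by 0.77 after it (SE 0.11, adjusted p = 0.000777). Day 4 against day 0 gave 0.05 (SE 0.11, adjusted p = 0.695, 95% interval −0.19 to 0.29). Both steps were called with each library left out in turn, with the fall between −0.78 and −0.67 and the later rise between 0.72 and 0.81. Being called lower by day 2 and higher after it was found in 208 of the tested genes, or 1.68%. A further transcript, NM_001290769, shares nearly all the counts and gave the same log2 fold changes.

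ULK1 is the serine/threonine kinase that starts autophagosome formation, and it takes part in the clearance of mitochondria and ribosomes in reticulocytes. Ulk1 (NM_009469, 28 exons, chr5:110784488-110810097, minus strand) had 27.8 and 23.9 CPM at day 0, 63.1 and 68.6 at day 2, and 95.1 and 107 at day 4. The libraries of the 3 days did not overlap. It rose by 1.35 on the log2 scale to day 2 (SE 0.12, adjusted p = 4.38e-06), by 0.62 from day 2 to day 4 (SE 0.12, adjusted p = 0.0031) and by 1.97 over the course (SE 0.12, adjusted p = 1.72e-07). Without day 2 replicate 1 the later step was no longer called (adjusted p = 0.0698), while the first step and the whole course were called whichever library was left out.

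**Figure D1:**
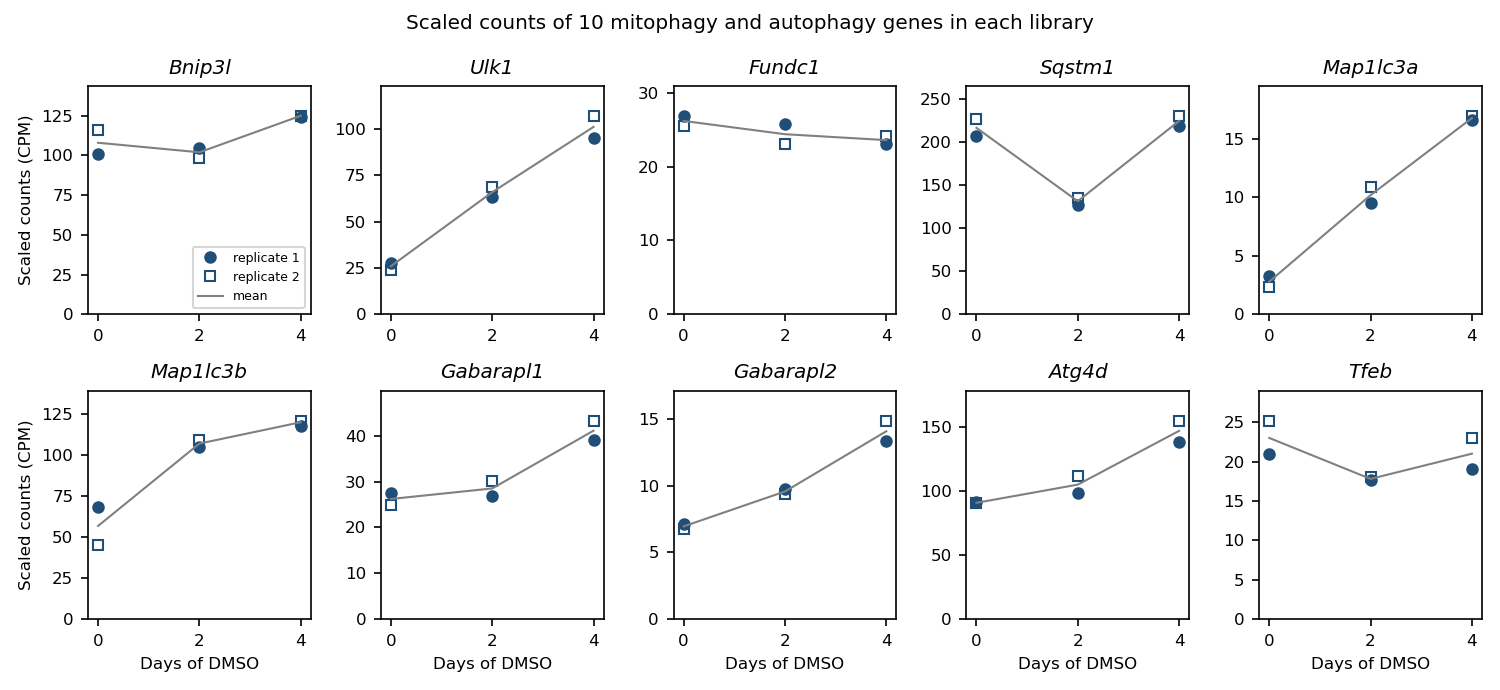
Scaled counts (CPM, y axis from 0 in each panel, with its own scale) of the 10 genes against days of DMSO; filled circles are replicate 1, open squares replicate 2 and the line joins the means. Ulk1 and Map1lc3a rise at each step, Sqstm1 dips at day 2 to 127 and 135 CPM, and Fundc1 stays between 23.1 and 26.9 CPM.

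The ATG8 proteins are the tags of the autophagosome membrane, and 4 of their 5 genes measured here are among the 10. Map1lc3a, for LC3A, had the largest fold change of the 10 from day 0 to day 4 and the lowest counts at day 0. It (NM_025735, 4 exons, chr2:155276297-155278073, plus strand) had 3.24 and 2.34 CPM at day 0, from 132 and 116 reads, 9.51 and 10.9 CPM at day 2, and 16.6 and 17.0 at day 4. No library of one day overlapped another day. The rise was 1.89 on the log2 scale to day 2 (SE 0.18, adjusted p = 6.55e-06), 0.71 after it (SE 0.16, adjusted p = 0.00723) and 2.60 in all (SE 0.18, adjusted p = 3.33e-07). Left-out libraries gave between 2.36 and 2.84 for the whole course, and the later step was lost without day 2 replicate 1 (adjusted p = 0.114). A non-coding transcript of the gene, NR_046364, holds 2542 reads over all libraries against 2550, so the deposited counts cannot separate them.

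Map1lc3b, for LC3B, the form most used to mark autophagosomes, changed by day 2 only. It (NM_026160, 4 exons, chr8:121590361-121598760, plus strand) had 68.6 and 45.1 CPM in the day 0 replicates, which lie far apart, 105 and 109 at day 2, and 118 and 121 at day 4. All libraries with DMSO lay above both day 0 libraries. The log2 fold change was 0.91 to day 2 (SE 0.16, adjusted p = 0.00056), 0.16 after it (SE 0.16, adjusted p = 0.479) and 1.07 over the course (SE 0.16, adjusted p = 0.000117). With day 0 replicate 1 left out the last value was 1.40, and with day 0 replicate 2 left out it was 0.79, both called. Processed pseudogenes share up to 12.7% of the 30-base words of this transcript.

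Gabarapl1 and Gabarapl2 encode GABARAP relatives that act late in autophagosome closure and fusion. Gabarapl1 (NM_020590, 4 exons, chr6:129533160-129542346, plus strand) had 27.5 and 24.8 CPM at day 0, 26.9 and 30.2 at day 2, and 39.0 and 43.3 at day 4. Its day 0 and day 2 libraries overlapped and its day 4 libraries lay above both. It gave 0.13 to day 2 (SE 0.12, adjusted p = 0.386) and rose by 0.53 after it (SE 0.12, adjusted p = 0.00853) and by 0.65 over the course (SE 0.12, adjusted p = 0.000559). With total counts the first step was called as well, at 0.32 (adjusted p = 0.0398), and the later step was lost without day 2 replicate 1 or day 4 replicate 2 (adjusted p = 0.132 and 0.0995). An opposite-strand gene, 1700101I11Rik, shares 377 exon bases with it and had a mean of at most 0.78 CPM on any day.

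Gabarapl2 (NM_026693, 4 exons, chr8:111940703-111953612, plus strand) was low, with 7.13 and 6.79 CPM at day 0, 9.75 and 9.42 at day 2, and 13.4 and 14.9 at day 4. The libraries of the 3 days did not overlap. It rose by 0.46 on the log2 scale to day 2 (SE 0.14, adjusted p = 0.0123), by 0.56 after it (SE 0.13, adjusted p = 0.00988) and by 1.02 in all (SE 0.14, adjusted p = 4.46e-05). The whole change was called whichever library was left out, but the first step was lost without day 2 replicate 1 or day 2 replicate 2 (adjusted p = 0.0782 and 0.0558), and the later one without either of those (0.091 and 0.0939) or without day 4 replicate 2 (0.0939). Its processed pseudogenes share up to 15.8% of its 30-base words.

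ATG4D is one of the ATG4 cysteine proteases, which trim ATG8 proteins before they are joined to lipid and release them again. Atg4d (NM_153583, 10 exons, chr9:21265293-21277772, plus strand) had 91.3 and 90.3 CPM at day 0, 98.5 and 112 at day 2, and 138 and 155 at day 4. The libraries of the 3 days did not overlap. The log2 fold change was 0.21 to day 2 (SE 0.11, adjusted p = 0.114), then 0.48 (SE 0.11, adjusted p = 0.00871), and 0.69 over the course (SE 0.11, adjusted p = 0.000187). With total counts the first step was called, at 0.41 (adjusted p = 0.00723). The later step was lost without day 2 replicate 1 (adjusted p = 0.148) or day 4 replicate 2 (0.105). The exons of its matched GENCODE transcript share 1405 bases with Kri1 on the opposite strand. Only 3016 of the 5951 bases of that transcript lie inside the RefSeq gene. How many of the shared bases were counted for Atg4d is therefore not known. Kri1 had a mean of 184, 133 and 186 CPM on days 0, 2 and 4, a fall and then a rise (log2 fold changes −0.47 and 0.49, adjusted p = 0.00241 and 0.00585). The counting's use of strand is not given in the sources used here, so reads in the shared bases cannot be told apart.

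TFEB is a transcription factor that turns on lysosomal and autophagy genes when nutrient signalling is low. Tfeb (NM_001161722, 9 exons, chr17:47737030-47792419, plus strand) had 20.9 and 25.2 CPM at day 0, 17.6 and 18.1 at day 2, and 19.1 and 23.0 at day 4. The day 2 libraries lay below all others, and the day 0 and day 4 libraries overlapped. Tfeb fell by 0.37 on the log2 scale to day 2 (SE 0.14, adjusted p = 0.0375), and gave 0.24 after it (SE 0.14, adjusted p = 0.215) and −0.13 over the course (SE 0.14, adjusted p = 0.416, 95% interval −0.44 to 0.18). The fall was not called with total counts (−0.17, adjusted p = 0.288) or without day 0 replicate 2 (0.147), day 2 replicate 1 (0.165) or day 2 replicate 2 (0.132). The 3 Tfeb transcripts share nearly all their counts and gave the same call.

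**Figure D2:**
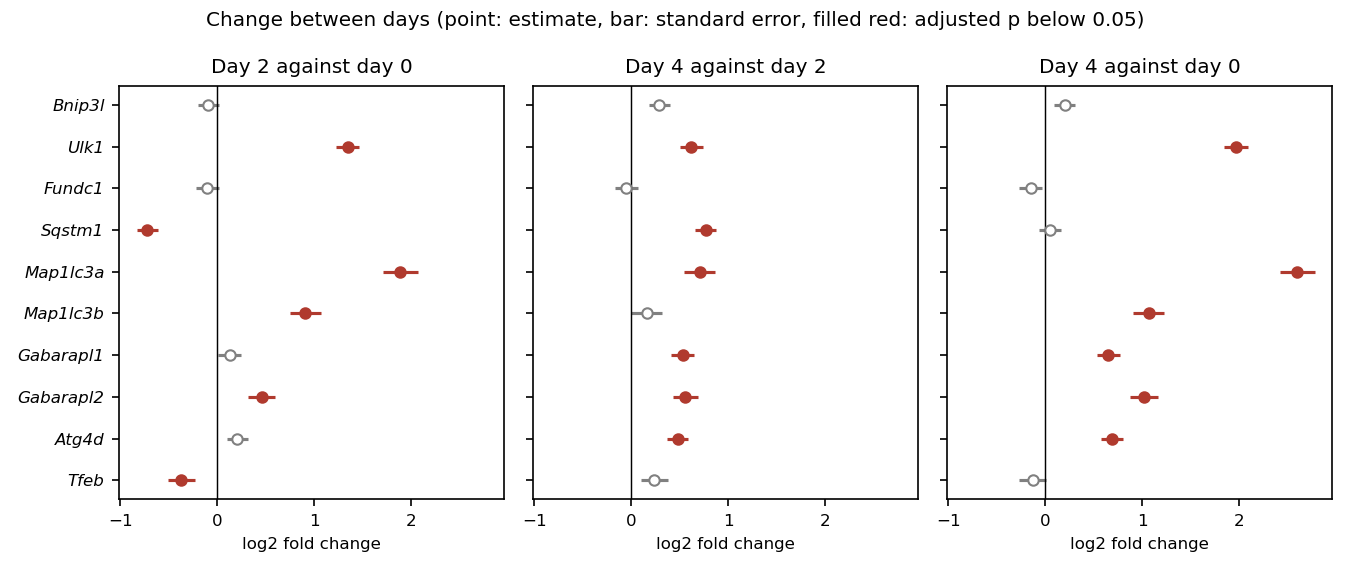
Log2 fold change (x axis) of each of the 10 genes for the 3 comparisons; points are estimates, bars are standard errors, filled red points have an adjusted p below 0.05 and open grey points do not. Map1lc3a reaches 2.60 and Ulk1 1.97 from day 0 to day 4, and no gene is called lower in the panels for day 4.

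Counted over the 10 genes, 6 were called from day 0 to day 2 (4 higher: Ulk1, Map1lc3a, Map1lc3b and Gabarapl2; 2 lower: Sqstm1 and Tfeb), where 62.5% of all tested genes were called, 31.0% higher and 31.5% lower. From day 2 to day 4, 6 were called (Ulk1, Sqstm1, Map1lc3a, Gabarapl1, Gabarapl2 and Atg4d), all higher, where 30.3% of all genes were called, 14.0% higher and 16.2% lower. From day 0 to day 4, 6 were called (Ulk1, Map1lc3a, Map1lc3b, Gabarapl1, Gabarapl2 and Atg4d), all higher, against 71.8% of all genes, 35.5% higher and 36.4% lower. The median log2 fold change of the 10 was 0.17, 0.50 and 0.67 in these comparisons, and that of all tested genes was 0.01, 0.00 and −0.02. Libraries of the compared days did not overlap for 7, 9 and 8 of the 10, against 80.5%, 74.0% and 84.8% of all genes. The comparisons share libraries and are not independent of each other. With libraries scaled by total counts, the median of all genes was 0.21, −0.09 and 0.10 instead, and the share of calls that were higher was 63.4%, 32.7% and 55.1% in place of 49.6%, 46.4% and 49.4%. The 10 genes then had 6 higher and 1 lower, 6 higher, and 7 higher, and no called direction turned. The count for the later step depends on single libraries: it was 1 (Sqstm1) without day 2 replicate 1, where the calls over all genes dropped to 318 higher and 619 lower from 1739 and 2010, and 3 without day 4 replicate 2.

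Put together, the steps gave 6 shapes. Ulk1, Map1lc3a and Gabarapl2 were higher at both steps, as were 8.33% of tested genes. Map1lc3b was higher by day 2 only (20.5%), and Gabarapl1 and Atg4d were higher after day 2 only (4.04%). Tfeb was lower by day 2 only (20.8%), Sqstm1 was lower by day 2 and higher after (1.68%), and Bnip3l and Fundc1 were called at neither step (28.4%). Whether a gene called at one step and not at the other truly changed by different amounts was not tested.

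Levels can be compared between genes only per length, for which length-scaled levels (TPM) were computed from the counts and annotated transcript lengths, without TMM factors. The total ran over all transcripts with a length, so a read shared by transcripts of a gene enters it more than once and lowers the levels. Without TMM factors, TPM of different days are not scaled to each other as CPM are. From day 0 to day 2, the mean of Bnip3l went from 74.8 to 84.3 in TPM but from 108 to 102 in CPM. Sqstm1 was the most abundant of the 10 on every day, with 237 ± 8.77, 173 ± 6.70 and 267 ± 5.92 TPM on days 0, 2 and 4 (SD, n = 2 libraries, as for all levels here). Bnip3l came next at day 0 with 74.8 ± 5.63 TPM, before Map1lc3b with 50.4 ± 15.9. At day 4 that order was turned, with Map1lc3b at 115 ± 0.147 TPM and Bnip3l at 93.8 ± 1.19. Ulk1 went from 11.1 ± 1.45 TPM, the eighth of the 10, to 47.2 ± 3.17, the sixth, and Map1lc3a from 5.62 ± 1.41, the lowest, to 36.7 ± 0.0335, the seventh, above Fundc1 (29.0 ± 0.496) and Tfeb (21.8 ± 2.53). At day 0 the libraries of Atg4d (34.1 ± 1.09 TPM) overlapped those of Gabarapl1 (32.2 ± 3.17), and those of Gabarapl1 overlapped Fundc1 (29.6 ± 1.80). Ulk1 and Fundc1 overlapped at day 2 (33.8 ± 1.81 and 33.0 ± 2.75 TPM), and Tfeb and Gabarapl2 at day 4 (21.8 ± 2.53 and 20.5 ± 1.18 TPM). The places of Atg4d and Gabarapl2, and of the genes next to them, depend on the length used: the matched GENCODE transcripts run past the RefSeq gene, and the part inside it has 3016 of 5951 bases for Atg4d and 980 of 1677 for Gabarapl2. On the shorter lengths, Atg4d had 67.3, 93.5 and 118 TPM on the 3 days and Gabarapl2 had 15.9, 26.2 and 35.1 TPM, which puts it above Ulk1 at day 0 and above Fundc1 and Tfeb at day 4.

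Within the ATG8 family, Gabarap (NM_019749), the fifth gene and no member of the 10, was the most abundant. Its scaled counts on days 0, 2 and 4 were 56.8 ± 1.24, 91.2 ± 2.35 and 108 ± 8.03 CPM (SD, n = 2), a rise of 0.68 on the log2 scale to day 2 (adjusted p = 0.000183) and 0.93 over the course (adjusted p = 1.08e-05), with 0.25 for the later step (adjusted p = 0.0874). Summed over the 5 genes, the family had 210 and 174 TPM in the day 0 libraries, 369 and 384 at day 2, and 411 and 433 at day 4. These sums carry no TMM factors, so part of their rise may come from scaling. With total counts, which also lack these factors, the median log2 fold change of all genes against day 0 was 0.21 at day 2 and 0.10 at day 4. Map1lc3a made up 3.16% and 2.66% of that sum at day 0, 6.24% and 6.85% at day 2, and 8.92% and 8.49% at day 4. Its share did not overlap between days, and it was the share that moved most in proportion. Gabarapl1 held 16.4% and 17.2% at day 0, 10.8% and 11.5% at day 2, and 12.8% and 13.2% at day 4, so its part of the family was lower at both later days although its own counts rose by day 4. Gabarap held 45.5% to 52.4% over all libraries, with the day 0 shares overlapping those of both later days and the day 2 shares above those of day 4. Map1lc3b held 22.6% to 30.4%, highest in both day 2 libraries, with the day 0 shares on either side of those of day 4. Gabarapl2 held 3.91% to 5.13%, and 6.40% to 8.35% on the shorter length.

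**Figure D3:**
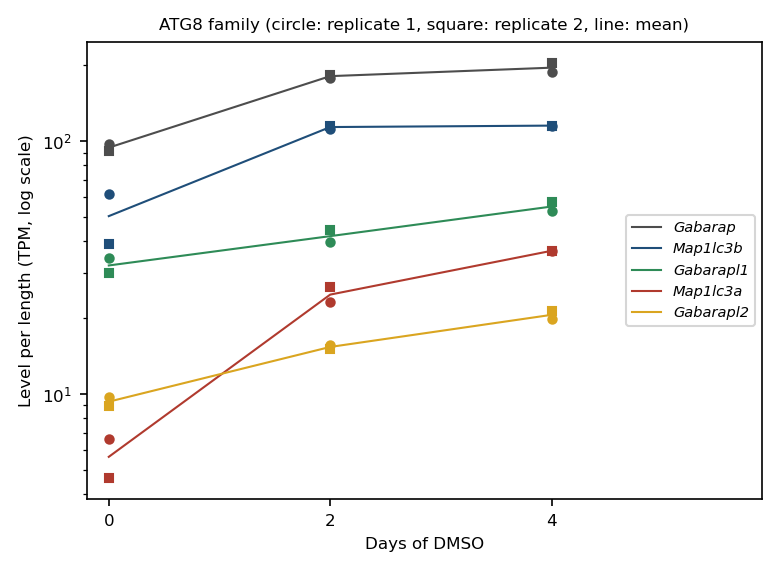
Level per length (TPM, log y axis) of the 5 ATG8 genes against days of DMSO; circles are replicate 1, squares replicate 2 and lines join the means. Map1lc3a climbs from 6.62 and 4.62 TPM to 36.7 and 36.8, crossing Gabarapl2, and Gabarap stays highest on each day. TPM carry no TMM factors, so the days are not scaled to each other as in CPM.

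The pattern of Bnip3l over the 6 libraries was set beside that of 5001 genes with a mean log2 CPM of at least 5, by the root mean square difference of centred log2 CPM. The nearest were Cdc37l1 (0.027), Spen (0.049), Brd2 (0.052), 6820431F20Rik (0.054) and Rtf2 (0.056). Cdc37l1, an HSP90 co-chaperone relative, had a mean of 50.0, 46.5 and 59.1 CPM on days 0, 2 and 4, and Brd2, a bromodomain protein, 101, 91.1 and 115. Because they were picked for this closeness, these genes share the order of Bnip3l, with the lowest mean at day 2 and the highest at day 4, by small steps. The lower mean of Bnip3l at day 2 was not called (log2 fold change −0.09, adjusted p = 0.483).

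Around the 10 genes, 111 others of the pathway fall into 6 lists, of which 110 were tested and only Rragd was not. From day 0 to day 2, 67 were called (38 higher and 29 lower), or 60.9%, beside 62.5% of all genes. From day 2 to day 4, 31 were called (24 higher and 7 lower), or 28.2%, beside 30.3%. From day 0 to day 4, 78 were called (52 higher and 26 lower), or 70.9%, beside 71.8%. The shares called are near those of all genes, and the medians were 0.11, 0.15 and 0.26 on the log2 scale, beside 0.01, 0.00 and −0.02. With total counts the split was 53 higher and 19 lower, 15 and 10, and 58 and 22. Without single libraries, the count for the later step ranged from 3 (without day 2 replicate 1) to 51 (without day 0 replicate 2), with 50 without day 0 replicate 1, 10 without day 2 replicate 2, 16 without day 4 replicate 1 and 7 without day 4 replicate 2. All values in the list descriptions that follow are for day 4 against day 0, where 35.5% of all tested genes were called higher and 36.4% lower. Beside the 71.8% called over all genes, the share called was 75.0% for initiation, 76.5% for conjugation and 77.8% for receptors. It was 71.4% for fusion, 50.0% for nutrient control and 74.2% for the lysosome.

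Of 12 genes of the initiation complex and the lipid kinase that follows it, 7 rose, 2 fell and 3 were not called (median 0.54). Ulk2, the close relative of Ulk1, rose by 2.12 on the log2 scale (SE 0.12, adjusted p = 1.26e-07), with a mean of 11.2, 42.7 and 48.6 CPM on days 0, 2 and 4. Atg13, which ties the ULK kinases to their complex, rose by 1.00 (SE 0.10, adjusted p = 6.9e-06), and Pik3r4, the regulatory subunit of the class III lipid kinase, by 0.85 (SE 0.14, adjusted p = 0.000175). The falls were Atg101, the partner of ATG13 (−0.81, SE 0.11, adjusted p = 7.18e-05), and Uvrag, a Beclin 1 partner (−0.66, SE 0.12, adjusted p = 0.000364). Both ULK kinases thus rose while members of the same complex moved both ways.

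Among 17 genes of ATG8 conjugation and membrane supply, 10 rose, 3 fell and 4 were not called (median 0.37). Wipi1, a phosphoinositide-binding protein of the forming membrane, rose by 2.39 (SE 0.13, adjusted p = 7.63e-08), from 4.99 to 26.1 CPM. Atg9a, the lipid scramblase of the seed vesicles, rose by 1.42 (SE 0.13, adjusted p = 3.13e-06) and Atg12, a ubiquitin-like protein, by 1.13 (SE 0.12, adjusted p = 7.6e-06). The 3 that fell were Atg10, the enzyme that joins ATG12 to ATG5 (−2.00, SE 0.25, adjusted p = 2.48e-05), Atg5 itself (−0.78, SE 0.16, adjusted p = 0.001) and Atg3, the enzyme that passes ATG8 to lipid (−0.45, SE 0.12, adjusted p = 0.00528). Atg5 ranged from −1.02 without day 0 replicate 1 to −0.51 without day 0 replicate 2, called in both. So the ubiquitin-like substrate Atg12 rose while Atg5 and Atg10 fell. Atg7, another enzyme of this conjugation, rose by 0.91 (SE 0.11, adjusted p = 2.93e-05), and Atg16l1 was not called (−0.10, SE 0.10, adjusted p = 0.386).

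Of 18 mitophagy and cargo receptor genes, 9 rose, 5 fell and 4 were not called (median 0.39). Pink1, the kinase that marks damaged mitochondria, rose by 1.29 (SE 0.13, adjusted p = 5.27e-06), from 24.7 to 60.4 CPM. Calcoco1, a receptor for the endoplasmic reticulum and Golgi, rose by 1.43 (SE 0.17, adjusted p = 2.07e-05), and by 1.16 without day 0 replicate 1. Bnip3, the close relative of Bnip3l and a hypoxia target, had the largest change downward and fell by 3.33 on the log2 scale (SE 0.47, adjusted p = 7.37e-05). Its day 0 replicates stood far apart at 39.6 and 157 CPM, while it had 11.2 and 10.6 at day 2 and 9.67 and 9.83 at day 4. The log2 fold change was −4.01 with day 0 replicate 1 left out and −2.03 with day 0 replicate 2 left out, called in both. Every DMSO library lay below both day 0 libraries for Bnip3, whereas Bnip3l was not called, and the difference between their changes was not tested. Phb2, an inner membrane mitophagy receptor and scaffold, fell by 1.64 (SE 0.11, adjusted p = 2.78e-07), and Pgam5, a mitochondrial phosphatase, by 0.62 (SE 0.14, adjusted p = 0.00175).

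Of 14 fusion genes, 7 rose, 3 fell and 4 were not called (median 0.15). Of the SNARE proteins that join autophagosome and lysosome, Stx17 rose by 1.93 (SE 0.11, adjusted p = 8.54e-08) and Snap29 by 1.36 (SE 0.10, adjusted p = 6.73e-07), whereas their partner Vamp8 fell by 1.82 (SE 0.15, adjusted p = 1.51e-06), from 108 to 30.6 CPM. Tecpr1, a tether, rose by 1.28 (SE 0.13, adjusted p = 5.59e-06). Genes of the tethering complex moved both ways. Vps39 and Vps41 rose by 1.02 and 0.83 (SE 0.11 and 0.12, adjusted p = 6.38e-06 and 7.05e-05). Vps11 and Vps16 were not called (−0.02 and −0.05, SE 0.12 and 0.11, adjusted p = 0.898 and 0.685). The tethering-complex genes Vps18 and Vps33a fell by 0.41 and 0.31 (SE 0.12 and 0.11, adjusted p = 0.00764 and 0.02), the first not called without day 4 replicate 2 (adjusted p = 0.0999) and the second not called without day 4 replicate 1 or 2 (0.0503 and 0.147).

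Of 18 tested genes of nutrient control and relatives of TFEB, 5 rose, 4 fell and 9 were not called (median 0.04). Tfe3, the relative that shares targets with TFEB, rose by 0.82 (SE 0.12, adjusted p = 6.85e-05), with a mean of 54.5, 58.9 and 96.0 CPM on the 3 days, whereas Tfeb was not called over the course. Zkscan3, a repressor of autophagy genes, rose by 0.75 (SE 0.12, adjusted p = 0.000129), and Rptor, a subunit of the kinase complex mTORC1, by 0.53 (SE 0.11, adjusted p = 0.00128). Ddit4 and Sesn2, inhibitors of mTORC1 under stress, fell by 1.48 and 0.73 (SE 0.16 and 0.14, adjusted p = 7.58e-06 and 0.000574), and Rheb, its activator, fell by 0.64 (SE 0.10, adjusted p = 0.000199).

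Of 31 lysosome genes, 14 rose, 9 fell and 8 were not called (median 0.26). Ctsb, a cathepsin protease, rose by 0.94 (SE 0.13, adjusted p = 5.52e-05) and Psap, the precursor of the saposins, by 0.91 (SE 0.12, adjusted p = 4.6e-05). Atp6ap1, an accessory subunit of the proton pump, rose by 1.13 (SE 0.12, adjusted p = 9.15e-06), while the pump subunits Atp6v1c1 and Atp6v1a fell by 0.91 and 0.68 (SE 0.11 and 0.12, adjusted p = 2.64e-05 and 0.000411). Over the 10 pump genes in the list, 3 rose, 4 fell and 3 were not called, so 70.0% were called beside 71.8% of all genes. Gla, a glycosidase, fell by 0.66 (SE 0.12, adjusted p = 0.000359).

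**Figure D4:**
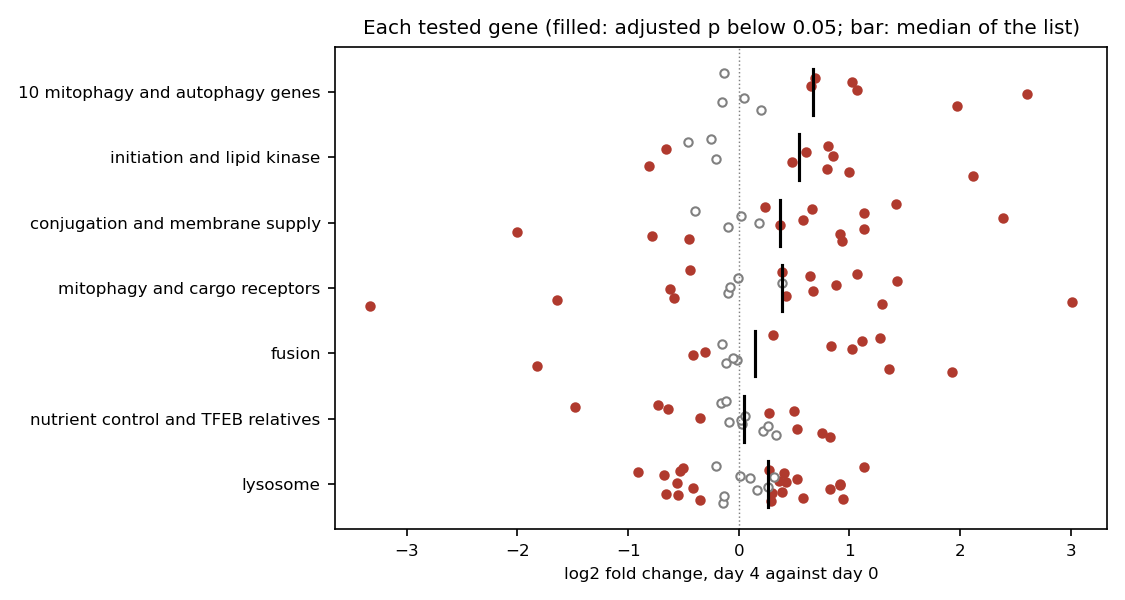
Log2 fold change from day 0 to day 4 (x axis) of each tested gene of the 10 and of the 6 other lists; filled red points have an adjusted p below 0.05, open grey points do not, and the vertical bar is the list's median. The median of the 10 genes lies at 0.67 and those of the other lists between 0.04 and 0.54, with genes called in both directions in each of the 6.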

How the data were processed

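Total RNA of MEL cells was made into stranded poly(A) libraries by the authors, who trimmed reads with cutadapt, used TopHat for alignment to mm10, and deposited unnormalized counts of reads for each RefSeq transcript. HTSeq and DESeq2 are named in the submitters' processing notes, and the strand setting and annotation release of the counting are not given in the sources used here. Groups and replicate numbers came from the sample titles. Reads on no feature were left out.

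Symbols came from RefSeq (32199 transcripts) or GENCODE (187), with 268 unmatched of 32654. Exon numbers, coordinates and exon overlaps printed for the 10 genes are those of the GENCODE transcript matched to each RefSeq transcript. Counts were tested with edgeR 4.0.16 (R 4.3.3): TMM factors (0.921 to 1.07), filterByExpr by day (18351 transcripts passed), and glmQLFit on the 6 libraries together. Benjamini-Hochberg adjustment ran over these transcripts, with calls made at adjusted p under 0.05. Standard errors came from the F statistic, and 95% intervals from its t distribution. CPM and TPM were computed here. The fit was tested on simulated data in which few transcripts changed. That test therefore says little about scaling or error rates under changes as broad as those called here. DESeq2 1.42.0 and the settings in the closing section were alternatives. Named are the 10 genes, up to 3 called genes with the largest rise and 3 with the largest fall from each list, the 5 genes nearest to Bnip3l, and markers, except that some genes the rule names are not reported here. Gabarap, as the fifth ATG8 gene, and the overlapping gene Kri1 lie outside this rule and were named after their values were seen. The same holds for Vps11, Vps16, Vps39, Vps41, Atg7 and Atg16l1.

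The 10 genes, the lists and the motifs were chosen with earlier results of these data known, and TATAAA, TGACNNNGC and GGGCGG after the windows were read.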

Additional observations from a re-analysis of the deposited data

How the results depend on the processing

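For the 10 genes, 249 re-computed values of called changes kept the call and 27 lost it. Where a change also had to reach 1 on the log2 scale, the 10 had 2 calls in the first step and 0 in the later one. From day 0 to day 4 they had 4, all higher. The other pathway genes had 11, 2 and 20 in these comparisons. Relative log expression factors, library sizes without globin transcripts, no filter beyond 1 count, adjustment over 1 transcript per gene and the transcript with the lowest mean count changed no call among the 10. In a fit of days 2 and 4 alone, 51 other pathway genes were called for the later step. Leaving out each library gave 1 to 7 calls among the 10 for day 4 against day 2 (fewest without day 2 replicate 1) and 3 to 51 among the other pathway genes. Values that turned sign were all without a call: with total counts, Bnip3l 0.11 and Fundc1 0.10 for day 2 against day 0, and over left-out libraries Bnip3l from −0.19 to 0.01 (day 2 against day 0), Fundc1 from −0.13 to 0.03 (day 4 against day 2), Sqstm1 from −0.02 to 0.10 and Tfeb from −0.28 to 0.00 (both day 4 against day 0). The cause was not tested. Same-numbered replicates deviated together weakly (correlations 0.0316, 0.0451 and 0.0791 over 18351 transcripts). This cannot decide whether the numbers pair the cultures, and the sample titles do not say. Adding a block for the replicate number gave calls for 6, 6 and 6 of the 10 and changed no call among them. TPM over 1 transcript per gene raised levels, with Sqstm1 at 347 TPM at day 0. The shorter lengths for TPM were chosen after seeing the data. Among the 10, depth limits Map1lc3a most (132 and 116 reads at day 0).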
